A study of Homo sapiens with 6 samples.

Results

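Cytosolic ribosomal protein genes encode the proteins of the ribosomes that translate nuclear mRNAs in the cytoplasm. Members were the protein-coding genes of GENCODE 29 whose symbol is RPL or RPS followed by digits, with at most 1 ending letter A, X, L or Y, together with RPLP0, RPLP1, RPLP2 and RPSA. This gave 81 genes of the 58381 gene IDs in the deposited table, 49 of the large ribosomal subunit and 32 of the small one, on 21 chromosomes. The S6 kinase genes, whose symbols begin in the same way, were not members, and neither were the longer-named paralogs RPL7L1, RPL22L1, RPL26L1 and RPL36AL. RNA came from MCF10AT1, a single human breast epithelial cell line derived from MCF10A cells transformed with activated HRAS and passaged in mice. Cells of this line had been stained for the surface proteins CD24 and CD44 and sorted into a CD24low, CD44high fraction (3 libraries) and a CD24high, CD44-positive fraction (3 libraries). Both fractions carry the HRAS transgene and were grown with hydrocortisone, cholera toxin, human insulin, EGF and horse serum in a DMEM/F12 medium that held glutamine, penicillin and streptomycin. The series title places the sort in a study of stem-like breast cancer cells and their control by RUNX factors, and the CD24low fraction is the one the file columns call CSC.

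The small ribosomal subunit reads the mRNA and the large one joins the amino acids, and both are assembled in the nucleolus from ribosomal RNA and, for most of the proteins, a single copy of each. Most mRNAs of these proteins begin with a C and a run of further pyrimidines, the terminal oligopyrimidine (TOP) tract, through which mTOR signalling and the RNA-binding protein LARP1 set how strongly they are translated. That control acts mainly on translation, which an RNA-seq library does not record. Several members have near-identical or partly similar paralogs that replace them in particular tissues or after stress.

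The first transcribed bases of 10 members are shown because the tract at this position is the feature the family is known for. They are the members with the most positive differences of either subunit for which an entry was at hand (RPL28, RPS15, RPS16), those with the most negative (RPS24, RPL22, RPL24), the mTOR pathway substrate RPS6, the stalk protein RPLP0, and the pair RPS27 and RPS27L. Each line runs 5′ to 3′ on the strand of the gene, from 10 bases before the annotated start to 20 bases of transcript. Capitals mark the unbroken pyrimidine run that begins with a C at the start. The sequences are from RefSeq on GRCh38.p14.
RPL28: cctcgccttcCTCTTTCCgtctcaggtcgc
RPS15: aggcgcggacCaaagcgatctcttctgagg
RPS16: ccctagctttCCTTTTCCggttgcggcgcc
RPS24: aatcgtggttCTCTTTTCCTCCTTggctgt
RPL22: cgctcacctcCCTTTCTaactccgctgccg
RPL24: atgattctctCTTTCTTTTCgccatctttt
RPS6: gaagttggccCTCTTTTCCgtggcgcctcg
RPLP0: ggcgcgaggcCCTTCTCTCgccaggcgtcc
RPS27: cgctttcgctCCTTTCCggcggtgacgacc
RPS27L: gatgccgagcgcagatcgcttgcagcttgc
These stretches lie at chr19:55385922-55385951 (RPL28, plus strand), chr19:1438386-1438415 (RPS15, plus), chr19:39435930-39435959 (RPS16, minus), chr10:78033853-78033882 (RPS24, plus) and chr1:6199576-6199605 (RPL22, minus). The others lie at chr3:101686699-101686728 (RPL24, minus), chr9:19380217-19380246 (RPS6, minus), chr12:120201092-120201121 (RPLP0, minus), chr1:153990752-153990781 (RPS27, plus) and chr15:63157458-63157487 (RPS27L, minus). Both members with the largest negative differences, RPS24 and RPL22, and the member with the largest positive one, RPL28, had a tract. RPS15, with the next largest positive difference, had none at the listed base. Most members with an entry had a tract, as given below.

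A start was counted as TOP-like when the first transcribed base was C and at least the next 4 were C or T, on the strand of the gene only. RefSeq start sequences were at hand for 64 of the 81 members, and 46 of these (71.9%) were TOP-like, against 1404 of 27305 genes (5.14%) in the same table. Start sites differ between annotations, so a missing tract says only that it is not at the listed base. The 46 tested members with such a start had a median log2 difference between the fractions of 0.09, and the 17 tested members with an entry and no such start had one of 0.11.

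Reads recovered from the normalized counts summed to 16691162 to 27293177 over the genes of each of the 6 libraries. Percentages of reads are of these sums. Reads of rRNA genes, with mitochondrial rRNA and rRNA pseudogenes counted in, were 7.15%, 7.07% and 1.97% of the total in CD24low replicates 1, 2 and 3. They were 1.30%, 2.27% and 10.2% in CD24high replicates 1, 2 and 3. Reads of mitochondrial genes, which include mitochondrial rRNA, were 3.84%, 3.62% and 0.76% in CD24low and 0.65%, 0.94% and 5.61% in CD24high. They split the libraries in the same way, so low and high rRNA share below is also low and high mitochondrial share. CD24 mRNA had 588, 329 and 1370.3 normalized counts in the CD24low libraries and 4043, 2325 and 5687 in the CD24high libraries. By CD24 mRNA, every library thus lay on the side its label gives. CD44 mRNA had 8294, 7479 and 6866 in CD24low and 8553, 7878 and 8993 in CD24high. The fractions overlapped, with a log2 difference (CD24low minus CD24high) of −0.17. It was −0.26 at low and −0.19 at high rRNA share, so CD44 mRNA was not higher in the CD44high fraction. All 8 epithelial markers were tested. For 5 of them every CD24low library was below every CD24high library, against 9.32% of all genes. Their summed levels, over all 8, were 69576 to 104081 in CD24low and 99881 to 127260 in CD24high. The median log2 difference of the 8 was −0.15 at low rRNA share, with 2 positive, and −0.95 at high rRNA share, with 0 positive. Of the 6 fibroblast markers, 2 were tested, with summed levels of 883 to 3829 in CD24low and 52.6 to 358 in CD24high. Decorin (DCN) made up most of that sum in every library but CD24high replicate 3, where COL1A1 had 38.0 and DCN 10.2. LUM had no read in any library and COL1A2 a single read in all. No leukocyte marker of 4 and 1 endothelial marker of 3 (PECAM1) passed the filter on low values. The part of these marker differences in any result below was not tested.

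Most ribosomal protein mRNAs had high counts in both fractions, and a few were among the most abundant. All tested members but RPL39L averaged at least 1000 normalized counts (78 of 81 members), where a normalized count is a read count divided by a factor for the library. Counts were highest for RPS2 (31593 on average over the 6 libraries), RPL13A (30173), RPL4 (28796) and RPLP0 (27877). Among the 100 most abundant genes outside rRNA and mitochondrial genes, 8 were members. The lowest tested members were RPL39L (259) and RPS27L (1325).

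RPL10L and RPL3L were at or near 0 in both fractions. RPL10L, known from testis, had 0 reads in every library, and RPL3L, known from heart and skeletal muscle, had 0 normalized counts in the 3 CD24low libraries and 0.83, 0 and 2.92 in CD24high replicates 1, 2 and 3, which is 1 read in replicate 1 and 2 reads in replicate 3. A count of 0 allows up to 3 reads, or 2.64 to 2.94 normalized counts per CD24low library and 2.49 to 4.38 per CD24high library, a limit for counting error only. Both stayed under the filter of a mean of 10 normalized counts, so 79 members (47 large, 32 small) of 16047 genes were tested.

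No ribosomal protein gene was called different between the CD24low and CD24high fractions, in a test that called no gene at all. The limma test on log2(normalized count + 1), with Benjamini-Hochberg adjustment over all genes tested, called 0 of 79 members at an adjusted p of 0.05, and 0 of 16047 genes (0.0%). Even CD24, on which the cells were sorted, was not called (log2 difference −2.55, limma adjusted p = 0.084). A missing call therefore does not show equal levels. At an unadjusted p under 0.05, 6 of 79 members passed (7.59%), against 13.5% of all genes; the 6 were higher in CD24low cells, where the share over all genes was 6.34%, and 0 were lower, where it was 7.15%. The edgeR quasi-likelihood test on recovered reads called 0 members (7 unadjusted) and 0 genes (0.0%; 14.1% unadjusted). DESeq2 called 0 members (10 unadjusted) and 402 genes (2.51%; 13.0% unadjusted). Whether the libraries of a fraction are separate cultures or sorts is not stated in the labels, and the spread behind each p-value is that among these 6 libraries alone, possibly technical.

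The differences were small and most of them positive. The median log2 difference, CD24low minus CD24high, was 0.11 over the 79 members, a fold of 1.08, with a range from −0.19 to 0.49. Over all genes tested the median was −0.01. The differences of the members had an SD of 0.11, against 0.45 for all genes. The difference was positive for 64 of 79 members (81.0%), against 49.0% of all genes. The 95% interval of the difference lay within 1.5-fold either way for 77 of 79 members (97.5%), against 51.5% of all genes, and within 2-fold for 79 of 79, against 79.5%. For 73 of 79 members (92.4%) the difference was under 0.25 in size, against 64.9% of all genes. These comparisons of spread with all genes were not matched for level. All genes were tested from a mean of 10 normalized counts, while 78 members averaged at least 1000. The 2 members whose interval reached past 1.5-fold were RPL28 and RPS15. Fewer cells with high levels and less RNA per cell cannot be told apart in such bulk samples.

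**Figure D1:**
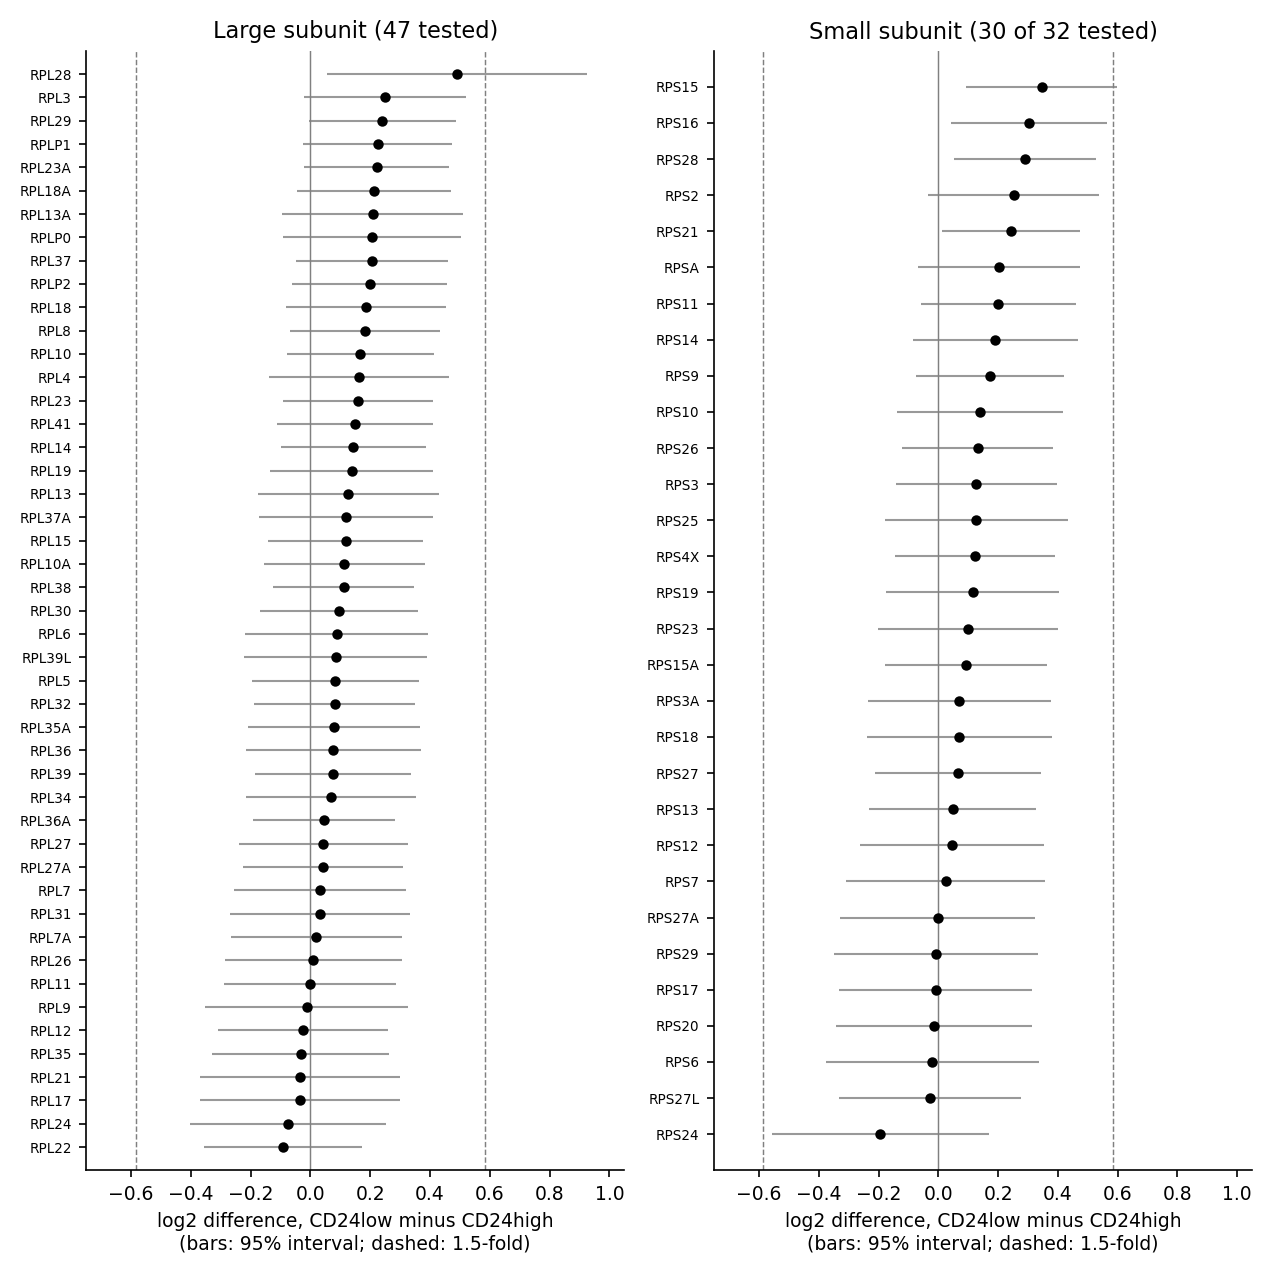
Log2 difference (CD24low minus CD24high, horizontal axis) of the 47 tested large subunit genes and 30 of the 32 tested small subunit genes, each a point with its 95% interval from limma; dashed lines mark 1.5-fold either way. Points run from 0.49 for RPL28 to −0.19 for RPS24, and most lie right of 0.

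Medians of the subunits lay close to each other. The 32 small subunit genes had a median difference of 0.12, with 25 positive, and the 47 large subunit genes had a median of 0.10, with 39 positive. The 3 CD24low libraries were all above the 3 CD24high libraries for 24 of 79 members (30.4%), 10 small and 14 large, against 10.2% of all genes; all 3 were below for 0 members, against 9.32%. Levels varied little between libraries. The median fold between the highest and the lowest of the 6 libraries was 1.33 for the members, with a highest value of 1.85. It was 1.51 for all genes tested, again not matched for level.

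Libraries numbered 3 stood at opposite ends of this family. The median deviation of the 79 members from their own mean over the 6 libraries, on the log2 scale, was 0.01, −0.02 and 0.18 in CD24low replicates 1, 2 and 3, and 0.02, 0.01 and −0.19 in CD24high replicates 1, 2 and 3. CD24low replicate 3 had the highest level of the 6 for 63 members, and CD24high replicate 3 the lowest for 61. The other 4 libraries lay within 0.05 of each other. Without CD24low replicate 3 the median difference was 0.03 (53 of 79 positive), without CD24high replicate 3 it was 0.02 (47 positive), and without both it was −0.04 (34 positive).

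**Figure D2:**
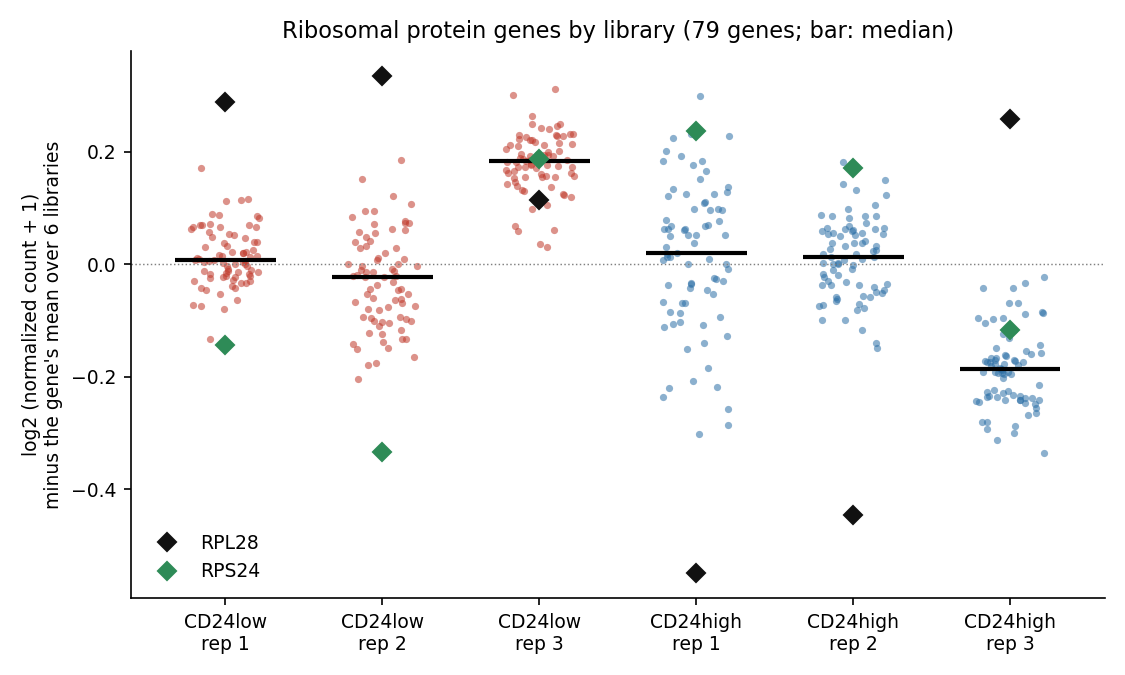
Log2(normalized count + 1) of the 79 tested members minus each gene's mean over the 6 libraries (vertical axis), per library, with the 3 CD24low libraries on the left and the 3 CD24high libraries on the right; bars are medians and diamonds mark RPL28 and RPS24. Medians run from 0.18 in CD24low replicate 3 to −0.19 in CD24high replicate 3, and the other 4 lie near 0.

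Each fraction held libraries with a low and with a high share of rRNA reads. Among the libraries with at most 5% rRNA reads (CD24low replicate 3 against CD24high replicates 1 and 2), the median difference of the members was 0.16, with 72 of 79 positive. Among those above 5% (CD24low replicates 1 and 2 against CD24high replicate 3) it was 0.18, with 78 positive. With the split as a covariate in limma the median was 0.17 and 77 members were positive; 22 members passed an unadjusted p of 0.05, against 11.1% of all genes, and 0 an adjusted one. The libraries compared when both replicates 3 are left out differ wholly in this share, so fraction and rRNA share cannot be told apart there. Each comparison within 1 level of rRNA share in turn rests on 1 of the libraries numbered 3.

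**Figure D3:**
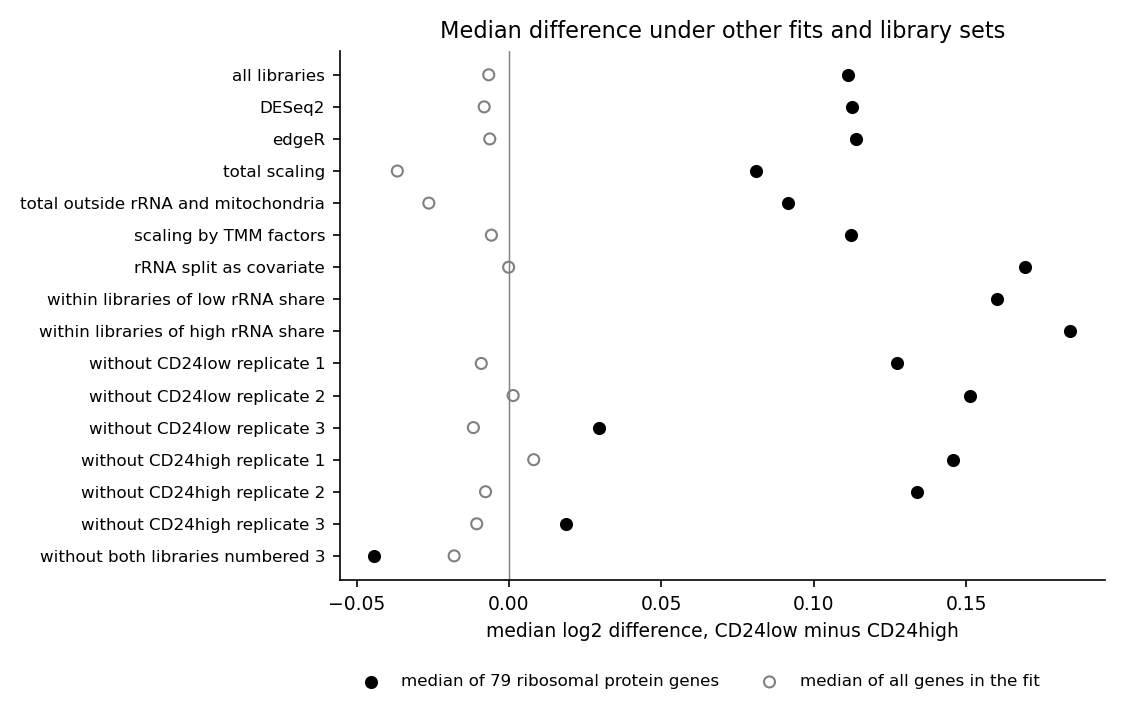
Median log2 difference (CD24low minus CD24high) of the 79 tested members (filled) and of all genes in the fit (open), for all libraries and for the fits, scalings and sets of libraries named on the vertical axis; the comparisons within 1 level of rRNA share have no open symbol, and scaling by the summed ribosomal protein level is not drawn. The filled symbols drawn lie between 0.08 and 0.18 except without CD24low replicate 3 (0.03), without CD24high replicate 3 (0.02) and without both (−0.04).

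Summed over the 81 members, normalized counts were 976342, 950215 and 1091087 in the CD24low libraries and 973298, 971208 and 848298 in the CD24high libraries. The groups overlapped, with CD24low replicate 3 highest and CD24high replicate 3 lowest. The means were 1005881 ± 74938 in CD24low and 930935 ± 71573 in CD24high (SD, n = 3 each), a fold of 1.08. Members took 4.10%, 3.95% and 4.56% of all recovered reads in CD24low replicates 1, 2 and 3, and 4.30%, 4.17% and 3.48% in CD24high replicates 1, 2 and 3. Of the reads outside rRNA and mitochondrial genes they took 4.45%, 4.28% and 4.67% in CD24low, against 4.38%, 4.29% and 3.91% in CD24high.

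Among small subunit genes RPS15, RPS16, RPS28 and RPS2 were among those with the largest differences. RPS15, a protein near the decoding centre whose gene lies on chromosome 19 at 1438358 to 1440494 of hg38, had 5698, 5675 and 6491 normalized counts in the CD24low libraries, against 4276, 4755 and 5028 in the CD24high libraries. All 3 CD24low libraries were above all 3 CD24high libraries, and the log2 difference was 0.35 (SE 0.11, limma adjusted p = 0.243), a fold of 1.27.

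RPS16, whose tail reaches the tRNA in the peptidyl site, had 14905, 13926 and 15309 in CD24low and 10862, 12358 and 12616 in CD24high (log2 difference 0.30, SE 0.12, limma adjusted p = 0.307). RPS28, a protein near the path where mRNA leaves the ribosome, had 3121, 3240.0 and 3541 in CD24low and 2492, 2818 and 2786 in CD24high (0.29, SE 0.11, limma adjusted p = 0.290). RPS2, at the mRNA entry, had 33429, 33563 and 35999.8 in CD24low and 27025, 29009 and 30532 in CD24high (0.25, SE 0.13, limma adjusted p = 0.419). For these 3, as for RPS15, the fractions did not overlap, yet none passed the adjusted test. At low and at high rRNA share the difference was 0.53 and 0.18 for RPS15, 0.40 and 0.19 for RPS16, 0.42 and 0.19 for RPS28, and 0.36 and 0.13 for RPS2, positive for all 4 genes.

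RPS24 had the most negative difference of all members. This gene, on chromosome 10 at 78033732 to 78056813, encodes a protein needed for maturation of the small subunit and is mutated in some cases of Diamond-Blackfan anaemia. It had 16128, 14124 and 20266 in the CD24low libraries, against 20974, 20049.6 and 16431 in the CD24high libraries. The groups overlapped, since CD24low replicate 3 was above CD24high replicates 2 and 3. The log2 difference was −0.19 (SE 0.16, limma adjusted p = 0.637), with a 95% interval from −0.56 to 0.17. It was −0.02 at low and −0.12 at high rRNA share, −0.44 without both libraries numbered 3 (limma adjusted p = 0.177), and −0.08 without CD24low replicate 2.

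RPS6, the classical substrate of S6 kinase, had 27045, 25311 and 27434 in CD24low and 30589, 29674 and 21554 in CD24high, and CD24high alone held both the highest and the lowest value (log2 difference −0.02, SE 0.16). RPS19, the gene most often mutated in Diamond-Blackfan anaemia, had 16373, 16216 and 19862 in CD24low and 16629, 16702 and 14926 in CD24high (0.12). RPS14, lost in the 5q- syndrome, had 15219, 15566 and 17541 in CD24low and 14511, 15076 and 12797 in CD24high (0.19). RPS14 did not overlap between fractions, while RPS6 and RPS19 did.

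RPSA, which also serves as the laminin receptor, had 19769, 19501 and 22422 in CD24low and 17800.3, 18658 and 17044 in CD24high (0.20, SE 0.12, limma adjusted p = 0.496), with no overlap. RPS4X, the X-linked form of a protein that also has a Y-linked gene, had 19078, 18116 and 20501 in CD24low and 18501, 17928 and 16527 in CD24high (0.12), with overlap. RPS12 had 12521, 11257 and 14501 in CD24low and 13366, 12770 and 10855.0 in CD24high (0.05). RPS29, a zinc-finger protein of the small subunit head, had 4366, 4486 and 5546 in CD24low and 5216, 5427 and 3909 in CD24high (−0.01). For RPS12 and RPS29 as well, CD24low replicate 3 was the highest library and CD24high replicate 3 the lowest.

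Among large subunit genes RPL28 had the largest difference. RPL28, a surface protein absent from budding yeast ribosomes, is on chromosome 19 at 55385345 to 55403250. It had 7541, 7790.4 and 6685 in the CD24low libraries, against 4219.6, 4535 and 7382 in the CD24high libraries. CD24high replicate 3, the lowest library for most members, was here above CD24low replicate 3, so the groups overlapped. The means were 7339 ± 579.6 in CD24low and 5379 ± 1742 in CD24high (SD, n = 3 each), and the log2 difference was 0.49 (SE 0.19, limma adjusted p = 0.318), with a 95% interval from 0.06 to 0.93. It was 0.61 at low rRNA share and 0.05 at high rRNA share. Without CD24high replicate 3 it was 0.74 (limma adjusted p = 0.261), and without both libraries numbered 3 it was 0.81 (SE 0.12, limma adjusted p = 0.039), the single call of a member under any alternative; over the 20 alternatives the adjusted p of RPL28 ran from 0.039 to 0.627. In that fit of 4 libraries 0.624% of all genes were called, and 5 members passed an unadjusted p of 0.05 (6.33%, against 17.6% of all genes): RPL28, RPS15 and RPS16, which were higher in CD24low, and RPS24 and RPL24, which were lower.

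RPL3, at the peptidyl transferase centre, had 26257, 28498 and 27332 in CD24low and 22061, 24077 and 22908 in CD24high (log2 difference 0.25, SE 0.12, limma adjusted p = 0.4). RPL10, which joins the large subunit last and whose mutation is found in T-cell leukaemia, had 12639.5, 12635 and 12973 in CD24low and 11738, 11842 and 10523 in CD24high (0.17). RPL37 had 10139, 10013 and 11524 in CD24low and 9233, 9609 and 8596 in CD24high (0.21). In these 3 genes every CD24low library was above every CD24high library. RPL41, the shortest of the ribosomal proteins, had 14626, 14339 and 16032 in CD24low and 14227, 13838 and 12519 in CD24high (0.15), likewise without overlap.

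The acidic stalk recruits the GTPase factors of translation, and its 3 genes had differences close to each other. RPLP0, the base of the stalk, had 27869.5, 28531 and 33279 in CD24low and 25730.1, 27559 and 24295 in CD24high (0.21, SE 0.13, limma adjusted p = 0.536). RPLP1 had 9366, 9554 and 10358 in CD24low and 7658, 8546 and 8877 in CD24high (0.22, SE 0.11, limma adjusted p = 0.413). RPLP2 had 7844, 7470.4 and 8753 in CD24low and 6414, 7514 and 7044 in CD24high (0.20, SE 0.12, limma adjusted p = 0.488). The fractions did not overlap for RPLP0 and RPLP1, while for RPLP2 CD24high replicate 2 was just above CD24low replicate 2.

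RPL5 and RPL11 bind MDM2 when ribosome assembly fails and so link the ribosome to p53. RPL5 had 15707, 13993 and 16646 in CD24low and 15100.1, 15363 and 13267 in CD24high (0.08). RPL11 had 11299, 10495.5 and 12579.8 in CD24low and 12502, 11883 and 10092 in CD24high, and its log2 difference was −0.0024 (SE 0.13), with a 95% interval from −0.29 to 0.29. Both overlapped between the fractions.

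The 6 members with the most negative differences were RPS24 and 5 large subunit genes. RPL22 had 5854, 5583 and 6375 in CD24low and 6919.8, 6497 and 5614 in CD24high (−0.09, SE 0.12, limma adjusted p = 0.773). RPL24, which helps bridge the subunits, had 7186, 6673 and 8326 in CD24low and 8849, 8225 and 6410.1 in CD24high (−0.07, SE 0.15, limma adjusted p = 0.858). RPL17, near the exit of the peptide tunnel, had 14742, 13407 and 16952 in CD24low and 17209, 16299 and 12863 in CD24high (−0.04). In all 3, CD24high replicate 1 was the highest library. RPL21 had 9895, 9156 and 11501 in CD24low and 12045, 10729.7 and 8665 in CD24high (−0.03). RPL35, also near the tunnel exit, had 11808, 10083 and 12707 in CD24low and 12031, 12810.2 and 10509 in CD24high (−0.03). Every one of the 5 overlapped between the fractions.

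The differences were also taken relative to the family itself. When each library was scaled by its summed ribosomal protein level instead of the deposited factors, an alternative chosen after the data had been seen, 0 genes were called (0.0%; 15.9% unadjusted) and the median of all genes moved to −0.12. On that scale the log2 difference was 0.38 for RPL28 (limma adjusted p = 0.493), 0.23 for RPS15 (0.387), −0.31 for RPS24 (0.248), −0.20 for RPL22 (0.312) and −0.19 for RPL24 (0.418).

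Paralogs were compared with their partners inside each library, which takes out the scaling between libraries. RPS27L, a p53 target in other human cells, had 1247, 1297 and 1374 normalized counts in CD24low and 1621, 1195 and 1216 in CD24high, and its partner RPS27 had 6124, 5996 and 6886 in CD24low and 6666, 6289 and 5254 in CD24high. RPS27L counts were 20.4%, 21.6% and 20.0% of RPS27 counts in CD24low and 24.3%, 19.01% and 23.1% in CD24high. The groups overlapped (log2 difference of the ratio −0.09; two-sided exact permutation test, p = 0.5, adjusted over 4 pairs p = 1.0). The smallest p that 3 against 3 libraries allow is 0.1.

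RPL39L, best known from testis and some tumours, had 260.0, 245 and 297 in CD24low and 253, 249.9 and 251 in CD24high. RPL39, a small protein of the peptide tunnel, had 5355, 5578 and 6480.4 in CD24low and 5687, 5762 and 5045 in CD24high. The paralog was at 4.86%, 4.40% and 4.58% of its partner in CD24low and 4.45%, 4.34% and 4.98% in CD24high, with overlap (0.01; exact permutation p = 0.9, adjusted p = 1.0). RPL22L1 was at 46.0%, 40.5% and 43.8% of RPL22 in CD24low and 48.0%, 46.2% and 31.9% in CD24high (0.07; exact permutation p = 1.0, adjusted p = 1.0). The low value of CD24high replicate 3 set the sign here, since the difference was −0.12 without it.

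RPL36AL was the paralog whose fractions did not overlap. RPL36A had 4261, 4018 and 4633 normalized counts in CD24low and 4154, 4415 and 3932 in CD24high. RPL36AL counts were 47.8%, 47.6% and 48.2% of these in CD24low and 45.9%, 43.3% and 46.7% in CD24high (log2 difference of the ratio 0.08; exact permutation p = 0.1, the smallest possible, adjusted p = 0.4).

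**Figure D4:**
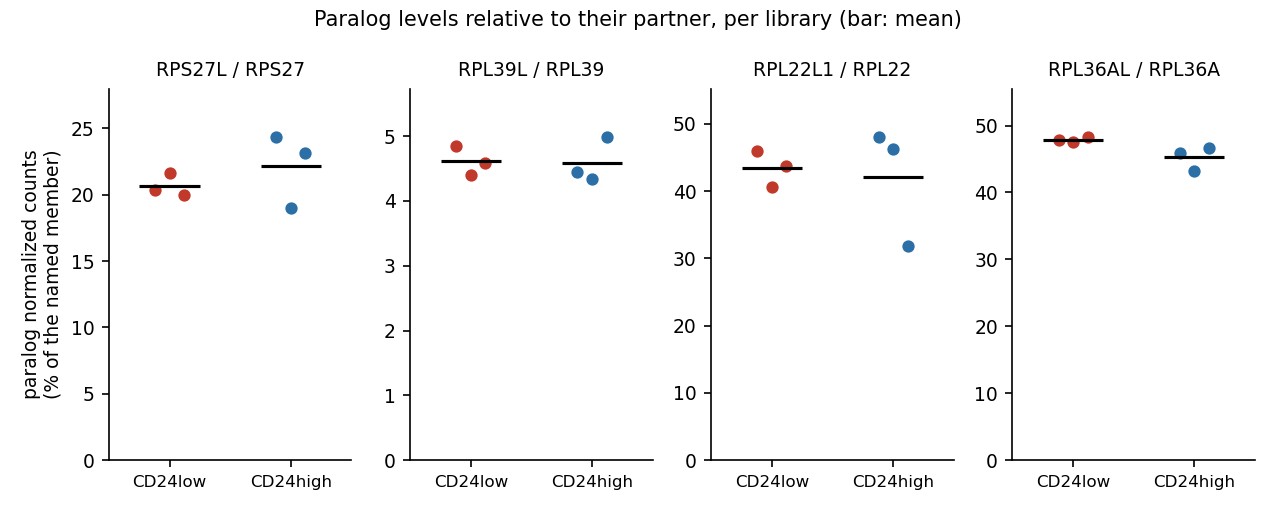
Normalized counts of 4 paralogs as a percentage of their partner (vertical axis, from 0) in the 3 CD24low libraries (left of each panel) and the 3 CD24high libraries (right); bars are means. Fractions overlap except for RPL36AL, at 47.6% to 48.2% of RPL36A in CD24low and 43.3% to 46.7% in CD24high.

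Compared per length, levels of RPS27L and RPL39L lay well under those of their partners. RPL22L1 and RPL36AL were not compared per length. The order of the other genes depended on the length used. Per kilobase of coding sequence, RPS27L had 5259 normalized counts and RPS27 24613, averaged over the 6 libraries and both with 252 coding bases. RPL39L had 1696 and RPL39 36937 per kilobase, both with 153 coding bases. The median over the tested members was 23199 per coding kilobase, and RPL41, with 75 coding bases, had 190179.9. Per kilobase of the chosen transcript the median was 14490 and RPS24 was highest at 32542 (553 bases), ahead of RPS2 at 32074 and RPL41 at 30413. RPS27L at 206 and RPL39L at 343 were lowest, followed by RPL37 at 1282, whose chosen transcript has 7686 bases; per coding kilobase RPL37 had 33857.

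Ribosomal protein genes have many processed copies in the genome, so their counts are uncertain in the share of reads the copies took. The table lists 1133 pseudogenes named for members, of which 531 had a read and 147 were tested. Their reads came to 10.1% to 10.8% of the member reads per library. Readthrough genes that span a member carried about the same counts as the member itself. RPS10-NUDT3 had 106% to 108% of the counts of RPS10, RPL17-C18orf32 97.3% to 98.1% of those of RPL17, and RPL36A-HNRNPH2 100% to 102% of those of RPL36A, so the reads of both genes at each of these loci cannot be told apart.

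Small nucleolar RNAs, which guide modification of rRNA, are often encoded in introns of ribosomal protein genes. Of the 79 tested members, 28 held 60 such genes, 5 of them in RPL4. The median difference was 0.12 for these 28 and 0.10 for the other 51.

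The members with the most positive differences were rich in G and C. Over the 79 members, the log2 difference and the GC content of the chosen transcript (42.1% to 63.6%) had a Spearman correlation of 0.59 and a Pearson correlation of 0.60, across genes that share the same 6 libraries and are not independent. The same Spearman value was 0.57 at low and 0.17 at high rRNA share. Over 12350 other protein-coding genes it was 0.36, with 0.43 at low and 0.04 at high rRNA share. The 39 members above the median GC content of 49.9% had a median difference of 0.17, with 36 positive, and the other 40 one of 0.06, with 28 positive. RPL28 (60.6%) and RPS15 (61.6%) lay at the GC-rich end, RPS24 (43.6%) and RPL22 (42.1%) at the other, and RPL35 (58.2%) was GC-rich with a difference of −0.03. The part of base composition in these differences was not tested.

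**Figure D5:**
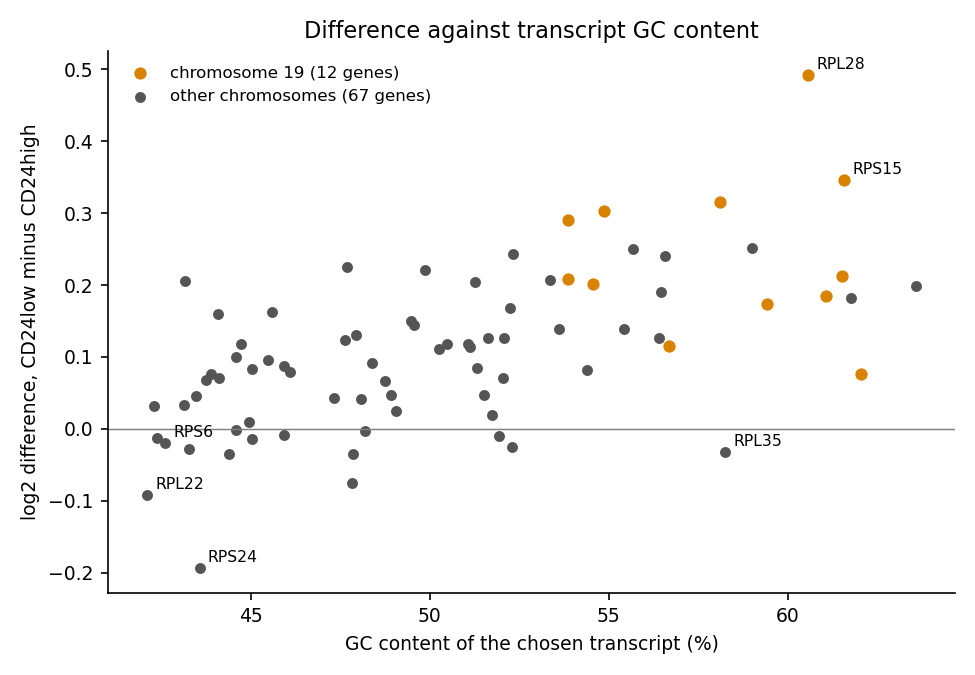
Log2 difference (CD24low minus CD24high, vertical axis) against GC content of the chosen transcript (percent, horizontal axis) for the 79 tested members; the 12 genes on chromosome 19 are in orange. RPL22 (−0.09 at 42.1%) and RPS24 (−0.19 at 43.6%, the lowest point) lie at the left, RPL28 (0.49 at 60.6%, the highest point) at the right, and RPL35 (−0.03 at 58.2%) below its neighbours.

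RPL28, RPS15, RPS16 and RPS28, all among the members with the largest differences, are on chromosome 19. The 12 members on that chromosome had a median difference of 0.21, and 12 of 12 were positive, while its 895 other tested protein-coding genes had a median of 0.09, with 575 positive. On the other chromosomes with at least 5 members, medians were 0.07 (chromosome 1), 0.10 (chromosome 3), 0.13 (chromosome 11) and 0.12 (chromosome 17). This grouping was made after the values had been seen and has no test.

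Other genes of the same pathway gave 0 calls in every list under limma, as over all genes (0.0%). Of the 6 paralogs and ubiquitin fusions, 4 were positive, with a median of 0.16. FAU, a ubiquitin-like protein fused to one of the small subunit, had 3862, 3697 and 4448 in CD24low and 3496, 3749 and 3143 in CD24high (0.21, limma adjusted p = 0.474). The fractions overlapped.

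Translation factors with TOP mRNAs had a median of 0.08, with 12 of 16 positive and 1 past an unadjusted p of 0.05. EIF3F, a subunit of initiation factor eIF3, had 2974, 3011 and 2831 in CD24low and 2429.7, 2413 and 2289.6 in CD24high (0.31, SE 0.10, limma adjusted p = 0.229), with no overlap. RACK1, a scaffold on the small subunit, had 29237, 29964 and 32777 in CD24low and 27469, 27956 and 25164 in CD24high (0.19, limma adjusted p = 0.550), also with no overlap. Genes of the control of TOP translation, which include mTOR complex genes, LARP1 and MYC, had a median of −0.01, with 10 of 21 positive and 1 past an unadjusted p of 0.05. In that list EIF4EBP2, a brake on initiation, had 1356, 1361 and 1742 in CD24low and 1884, 1694 and 1821 in CD24high (−0.28, limma adjusted p = 0.365), and its difference was −0.04 at low and −0.42 at high rRNA share. MXD1, an antagonist of MYC, had 372, 391 and 331 in CD24low and 528, 458 and 379.9 in CD24high (−0.31, limma adjusted p = 0.403), and its difference was −0.57 at low and 0.01 at high rRNA share. The median of the list was −0.04 at low and −0.03 at high rRNA share, and that of the translation factors 0.06 and 0.18.

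Ribosome biogenesis genes, which act in the nucleolus, had a median of −0.06, with 10 of 28 positive. Past an unadjusted p of 0.05 were 2 of the 28, against 13.5% of all genes. NMD3, the export adaptor of the large subunit, had 1409, 1231 and 1466 in CD24low and 1953, 1630.0 and 1645 in CD24high (−0.35, limma adjusted p = 0.266). TAF1D, a subunit of the RNA polymerase I selectivity factor, had 3124, 2579.9 and 3244 in CD24low and 4064, 3353 and 3482 in CD24high (−0.29, limma adjusted p = 0.369). Both were lower in every CD24low library than in any CD24high library. The median of the list was 0.0047 at low rRNA share, with 14 of 28 positive, and −0.04 at high rRNA share, with 8 positive.

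Of the 14 listed snoRNA host long RNAs, 12 were in the table and tested; their median was −0.06, with 3 positive and 1 past an unadjusted p of 0.05. The direction of that median depended on the libraries compared: it was −0.06 at low rRNA share, with 5 of 12 positive, and 0.03 at high rRNA share, with 8 positive. SNHG3 had 9793, 11518 and 10996 in CD24low and 15214, 13621 and 14240.5 in CD24high (−0.42, SE 0.12, limma adjusted p = 0.192), and SNHG7 had a difference of −0.20 (limma adjusted p = 0.453). The 7 genes of the p53 arm had a median of −0.13, with 2 positive. Past an unadjusted p of 0.05 were 2 of the 7, against 13.5% of all genes. MDM2, the ubiquitin ligase that RPL5 and RPL11 bind, had 3399, 3347 and 3961 in CD24low and 5542, 4459 and 5707 in CD24high (−0.55, SE 0.13, limma adjusted p = 0.142). CDKN1A, the cell cycle inhibitor p21, had 2845, 2588 and 3273 in CD24low and 4151, 3510.0 and 4522 in CD24high (−0.48, SE 0.13, limma adjusted p = 0.181). SNHG3, MDM2 and CDKN1A did not overlap between fractions. At low and at high rRNA share the difference was −0.33 and −0.76 for MDM2, −0.22 and −0.74 for CDKN1A, and −0.39 and −0.42 for SNHG3, and the median of the p53 list was −0.22 and −0.18.

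The ribosome of mitochondria, built from a separate set of nuclear genes, had a median of 0.02 over 78 tested genes, with 40 positive. An unadjusted p under 0.05 was reached by 13.5% of all genes and by 2 of these 78. Those with the smallest p were MRPL50 (−0.34, limma adjusted p = 0.306; −0.18 at high rRNA share) and MRPL23 (0.30, limma adjusted p = 0.369). The median of the mitochondrial list was 0.13 at low and 0.06 at high rRNA share, beside 0.16 and 0.18 for the cytosolic genes.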

How the data were processed

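The deposited table holds a signal per gene ID: counts normalized by the authors with size factors from DESeq2, per the submitters' processing notes, where STAR 2.5.2, R 3.5.0 and hg38 are also named. Per the labels' protocols, total RNA was depleted of rRNA, primed with random hexamers and made into strand-specific libraries. What counted the reads, with which strand setting and which annotation release, is not given in the sources used here. Values were whole multiples of 1 step per library (0.83 to 1.46), so whole reads were recovered; 100% of values were whole within 0.1 reads. On these reads edgeR called 0 genes and DESeq2 402. Of 58381 IDs, 58261 matched GENCODE 29. Replicates differed beyond sampling noise (chi-square per degree of freedom 26.6 to 166), so each library counted once.

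All genes that averaged 10 or more normalized counts were tested with limma (trend) on log2(value + 1), which understates differences of low genes; log2 differences are CD24low minus CD24high. The fit was also run on simulated counts. These were drawn gene by gene without the rRNA split between libraries, so that run does not show how the fit behaves on these data. The alternatives were other pseudocounts, filters, scalings, tests, a replicate block, an rRNA covariate and left-out libraries. Members and lists were chosen with earlier results of these data known. Named members were 20 fixed ones, the 6 most positive, the 6 most negative, and the 3 highest and 3 lowest per kilobase, by the chosen transcript and by all exons; of each list, the 2 genes with the smallest p. A few of these items are not reported here by name. The chosen transcript is the best supported basic one, the shortest in a tie, and coding lengths leave out the stop codon.

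Fits used edgeR 4.0.16, limma 3.58.1 and DESeq2 1.42.0 in R 4.3.3; tables and figures used scipy 1.17.1, numpy 2.4.6, matplotlib 3.10.9 and pandas 2.3.3 in Python 3.11.15.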

Additional observations from a re-analysis of the deposited data

How the results depend on the processing

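No member was called under any alternative but one: without both libraries numbered 3, 1 member (RPL28) was called. All genes called were 0 with all libraries (limma; 2164 at an unadjusted p under 0.05, and 0 with edgeR, 2263 unadjusted), 164 with no filter on low values, 402 with DESeq2, 716 with the replicate block, 100 without both libraries numbered 3, and 0 to 371 with 1 library left out, the 371 without CD24low replicate 3. Without both libraries numbered 3, the median difference of the members was −0.044 and the difference of their summed level was −0.014 (log2). With 1 library left out, the median ranged from 0.02 to 0.15 and the summed level from 0.05 to 0.15. Of the paralog ratios, RPL39L to RPL39 ranged from −0.031 to 0.069 and RPL22L1 to RPL22 from −0.12 to 0.18 with 1 library left out; the cause of these changes was not tested. Same-numbered libraries of the fractions had correlations of their deviations of 0.27, 0.30 and 0.05, and differently numbered ones of −0.26 to 0.08. The lowest same-numbered value was under the limit of 0.1, and the main test did not pair the libraries. Whether the numbers mark pairs was not settled by these values. With the replicate block 0 members were called (5 unadjusted), and 4.46% of all genes (16.9% unadjusted). Sign-flip tests of the ratios gave exact p of 0.5 (RPS27L), 0.75 (RPL39L), 1.0 (RPL22L1) and 0.25 (RPL36AL). The smallest p this test allows with 3 pairs is 0.25, so no ratio could pass it. Of 640 values of 32 named members under 20 alternatives, 46 changed sign, and 17 members kept their sign throughout. At 0 to 2 reads per library, RPL3L and RPL10L could not be compared at this depth.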
